A study of Homo sapiens with 12 samples.

Results

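The genes described here are 10 parts of the bone morphogenetic protein (BMP) pathway, chosen by their symbols: the ligands BMP2, BMP4 and BMP6, the secreted antagonist GREM1, the inhibitors of DNA binding ID1, ID2, ID3 and ID4, and the inhibitory SMADs SMAD6 and SMAD7. All 10 were among the 16383 genes of the table, and all 10 passed the filter on low values that left 11242 genes for testing (a mean of at least 10 normalized counts, that is, reads of a gene after division by the scale factor of its library). RNA captured by its poly(A) tail was sequenced from 12 libraries of wild-type IMR90, a line of human lung fibroblasts, 3 libraries in each of 4 groups. Proliferating cells had no treatment. The other groups had received 20 Gy of ionizing radiation over 10 min and were then given DMSO (the vehicle), palbociclib, which blocks the cell cycle kinases CDK4 and CDK6, or ruxolitinib, which blocks the cytokine receptor kinases JAK1 and JAK2, each drug at 2 µM on days 4, 6, 8 and 10 after irradiation. The irradiated cells, called senescent by the labels, were collected on day 11. Every group was thus 1 cell line. The proliferating cells differed from the DMSO cells in irradiation and in vehicle together, and no collection day is given for them. Irradiation, vehicle and any difference in time in culture therefore cannot be told apart. Nothing in the labels says that replicates were separate cultures, so p-values measure the spread between these libraries, which may be technical.

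BMPs are secreted dimers that bind type I and type II serine/threonine kinase receptors. The receptors phosphorylate SMAD1, SMAD5 and SMAD9, which enter the nucleus with SMAD4 and switch on target genes, among them the ID genes, SMAD6 and SMAD7. ID proteins have a helix-loop-helix but no DNA-binding region, and they pair with E proteins such as TCF3, TCF4 and TCF12 and keep them off DNA. SMAD6 and SMAD7 are feedback brakes that act on the receptors and on the other SMADs, and SMAD7 also answers to TGF-beta. Gremlin 1, the product of GREM1, binds BMP2 and BMP4 outside the cell and keeps them from their receptors; in the lung it is known for being abundant in fibrotic tissue.

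Promoter sequences were matched for 9 of the 10 genes in RefSeq (GRCh38.p14), in which BMP2 had no entry. Below are the bases just before the start sites of ID1, ID3 and ID4, close relatives that moved in different directions in these cells, and of GREM1 and SMAD6, whose windows hold motifs known to bind SMAD proteins. Capitals mark TATAAA on either strand in the ID genes, GGCGCC (a GC-rich element known to bind SMAD1 and SMAD5) in GREM1, and GTCTAGAC (the palindrome known to bind SMAD3 and SMAD4) in SMAD6. The ID3 window has no exact match and so no capitals.
ID1 (chr20:31605039-31605282, plus strand): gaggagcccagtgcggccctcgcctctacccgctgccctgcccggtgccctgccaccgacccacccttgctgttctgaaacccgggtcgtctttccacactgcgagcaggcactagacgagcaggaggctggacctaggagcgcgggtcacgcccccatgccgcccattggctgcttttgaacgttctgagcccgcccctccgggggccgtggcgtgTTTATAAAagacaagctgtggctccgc
ID3 (chr1:23559502-23559751, minus strand): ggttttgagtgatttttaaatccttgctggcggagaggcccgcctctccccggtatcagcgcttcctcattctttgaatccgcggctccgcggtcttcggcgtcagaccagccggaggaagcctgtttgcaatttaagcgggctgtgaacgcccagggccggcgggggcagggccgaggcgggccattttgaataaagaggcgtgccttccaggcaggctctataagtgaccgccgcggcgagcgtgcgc
ID4 (chr6:19837120-19837369, plus strand): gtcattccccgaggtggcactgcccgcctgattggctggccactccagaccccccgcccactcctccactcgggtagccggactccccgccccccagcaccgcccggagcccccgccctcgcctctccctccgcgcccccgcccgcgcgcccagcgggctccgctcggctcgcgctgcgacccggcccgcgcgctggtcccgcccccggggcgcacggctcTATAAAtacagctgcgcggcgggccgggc
GREM1 (chr15:32717754-32718003, plus strand): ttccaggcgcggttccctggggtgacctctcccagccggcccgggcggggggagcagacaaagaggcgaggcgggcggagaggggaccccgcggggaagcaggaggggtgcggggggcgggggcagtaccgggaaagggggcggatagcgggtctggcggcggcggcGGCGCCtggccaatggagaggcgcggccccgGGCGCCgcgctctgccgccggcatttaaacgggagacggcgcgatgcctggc
SMAD6 (chr15:66701986-66702235, plus strand): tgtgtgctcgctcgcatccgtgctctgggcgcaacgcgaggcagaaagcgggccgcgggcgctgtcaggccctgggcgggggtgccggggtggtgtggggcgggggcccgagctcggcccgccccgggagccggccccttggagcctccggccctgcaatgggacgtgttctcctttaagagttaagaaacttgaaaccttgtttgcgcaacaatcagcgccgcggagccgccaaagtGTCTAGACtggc
TATAAA lay 31 bases before the RefSeq start site in ID1, where it overlaps a match on the other strand, and 29 bases before it in ID4. The ID1 window was cut to 244 bases, ending just before the gene start in GENCODE v44, so its printed bases stop short of the RefSeq start site. GGCGCC lay 83 and 52 bases before the first GREM1 start site, and GTCTAGAC 12 bases before that of SMAD6. Among all 35116 RefSeq promoter windows of 250 bases, read on both strands, TATAAA occurred in 10.7%, GGCGCC in 16.4% and GTCTAGAC in 0.182%. Over the 14 windows of the 9 matched genes, TATAAA was found for 3 genes (ID1, ID4 and SMAD7), GGCGCC for 2 (BMP4 and GREM1), GTCTAGAC for 1 (SMAD6), and CCAAT, which 32% of all windows hold, for 5 (BMP6, GREM1, ID1, ID2 and ID4). The SMAD motifs of GREM1 and SMAD6 were thus different ones, and ID1 and ID4 both held TATAAA close to the start site. These matches are letters in a window and were not tested for binding. Their part in the levels below was not tested.

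The libraries held 14106799 to 21762412 reads over the listed genes, and no member had fewer than 10 reads in any library. No replicate pair agreed within counting noise. Libraries A126 (proliferating), A119 and A120 (both palbociclib) stood apart from their own groups on the first within-group component (scores 17.2, -17.8 and 18.4, the other libraries between -10.3 and 1.20), so the results that rest on them are also given without them. If all libraries were set to equal totals, the log2 difference of the median gene would move by 0.23 for DMSO against proliferating cells, by -0.23 for palbociclib against DMSO and by -0.03 for ruxolitinib against DMSO; differences below are relative to the authors' scaling. All 8 fibroblast markers were present, with a summed level of 813770 to 847555 normalized counts in proliferating, 403689 to 414316 in DMSO, 646634 to 679817 in palbociclib and 510843 to 514800 in ruxolitinib libraries. These sums were mostly COL1A1, COL1A2 and VIM. The markers did not move as a set: DCN and THY1 means were higher in DMSO (13247 and 9900) than in proliferating cells (11887 and 8752), and the others were lower. With palbociclib the DCN mean was 26839. Markers of other cell types also moved with the groups. In the same order of groups, the 6 epithelial markers summed to 1966 to 2434, 1575 to 1785, 3272 to 3766 and 1545 to 1627 normalized counts, highest with palbociclib and mostly KRT18. CDH1, which defines epithelium, was at 0 in proliferating libraries, 2.37 to 4.95 with DMSO, 9.85 to 18.8 with palbociclib and 0.900 to 1.54 with ruxolitinib, and KRT5 and SFTPC did not exceed 0.888 in any library. EPCAM went the other way, and its mean was lowest with palbociclib (22.3, 32.3, 20.6 and 23.8 in the same order of groups). The 5 endothelial markers, nearly all TEK, summed to 1681 to 1949, 2389 to 2554, 3501 to 4380 and 2247 to 2254, also highest with palbociclib, while CDH5 did not exceed 2.71 in any library. PECAM1 and KDR means were lower with palbociclib (5.45 and 2.14) than with DMSO (10.7 and 9.20). VWF means were 21.2 with palbociclib and 19.1 with DMSO. The 5 immune markers, nearly all CD68, summed to 543.7 to 570.7, 1224 to 1306, 697.2 to 803.9 and 1068 to 1145, the same order of groups as SMAD7 below, while PTPRC did not exceed 9.90 and CD3E did not exceed 2.71. The 2 smooth muscle markers summed to 83.8 to 106.9, 66.3 to 94.0, 26.6 to 44.9 and 27.0 to 40.6. The part of these levels in the results was not tested. In bulk libraries like these, fewer cells of a type and less RNA per cell cannot be told apart.

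After irradiation, the ligands BMP2, BMP4 and BMP6, the brake SMAD7 and the targets ID1 and ID2 were higher in DMSO than in proliferating cells, and GREM1, ID3 and ID4 were lower. That is 6 members called higher and 3 lower at an adjusted p under 0.05 (limma, Benjamini-Hochberg over all tested genes), where 72.4% of all genes were called, 33% higher and 39.3% lower, so being called did not set these genes apart. Their median absolute log2 difference was 0.63, against 0.45 over all genes tested. Members and lists were chosen with earlier results of these data known, so comparisons with all genes, here and below, are descriptions only. The groups did not overlap for 9 of the 10, as for 75.1% of all genes.

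BMP2, BMP4, SMAD7, ID1 and ID4 were lower with palbociclib than with DMSO and GREM1 was higher, which makes 5 members lower and 1 higher, where 48.3% of all genes were called (22.3% lower, 26% higher). The members' median log2 difference was -0.47, against 0.02 over all genes tested, and the groups did not overlap for 7 of the 10, as for 54.8% of all genes. At equal library totals, which moved the median gene by -0.23, 8 members were called lower and 0 higher. The shares of all genes given here are for the authors' scaling, so these counts have no matching share. With ruxolitinib, BMP2 alone among the 10 was lower than with DMSO at this threshold, where 4.52% of all genes were called (3.42% lower, 1.1% higher), and the groups did not overlap for 4 members, against 31.9% of all genes. The members' median log2 difference with ruxolitinib was -0.03, against 0.00 over all genes. The same 3 DMSO libraries stand in all of these comparisons, so a chance deviation in them would enter each one.

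**Figure D1:**
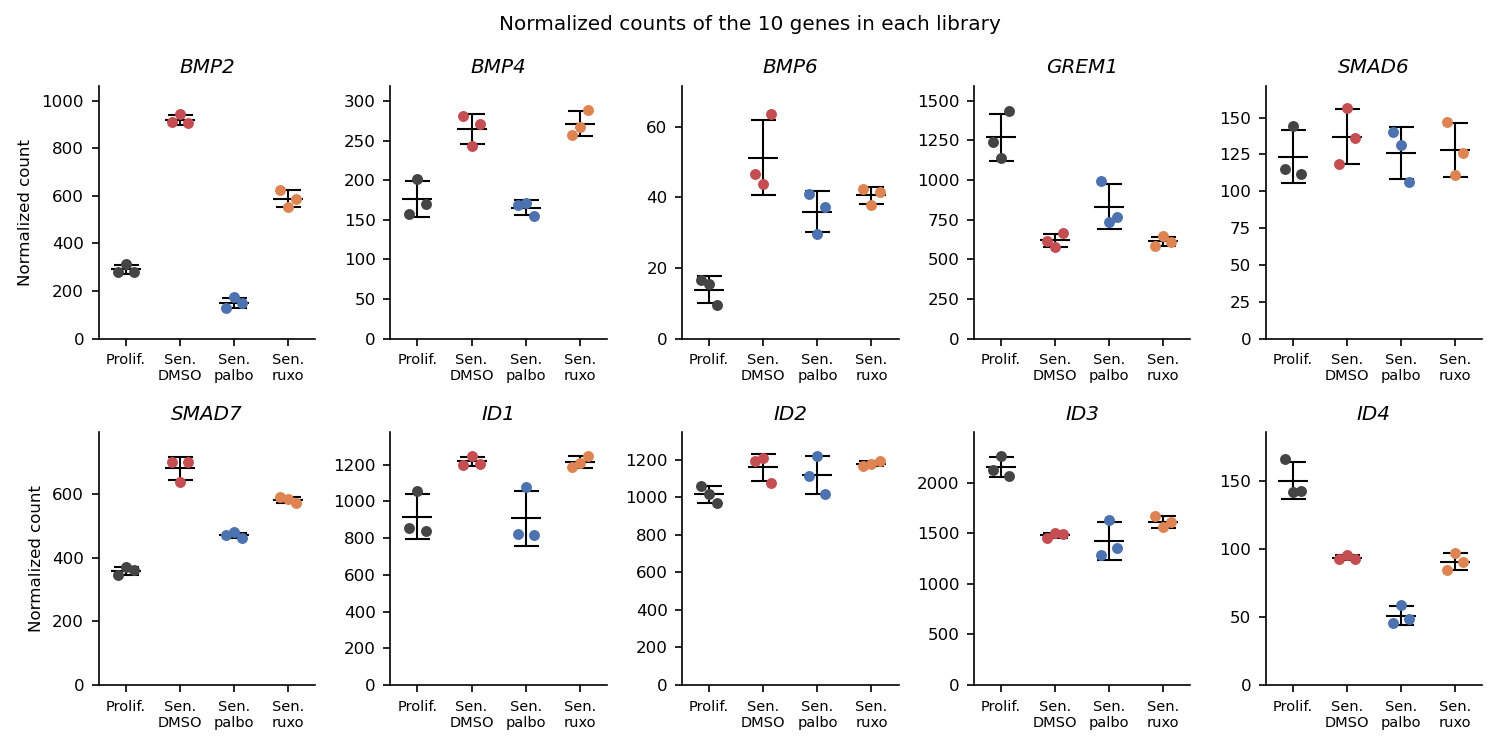
Normalized counts (y axis, linear, from 0, its own scale in each panel) of the 10 genes in each library by group (x axis), with points for single libraries and bars for the group mean and SD (n = 3). BMP2 stands at 905.4 to 943.5 in the DMSO libraries and at 129.5 to 173.0 with palbociclib, while the 4 groups overlap in the SMAD6 panel.

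BMP2, a ligand known for inducing bone and for paracrine signals in many tissues, had the widest swings. The gene lies at chr20:6767686-6780246 (GRCh38, plus strand, 3 exons in its canonical transcript, GENCODE v44). Its values were 280.2, 311.6 and 280.0 normalized counts in proliferating libraries and 910.6, 943.5 and 905.4 with DMSO. Palbociclib libraries had 129.5, 173.0 and 147.5, and ruxolitinib libraries 624.2, 555.6 and 587.4. No 2 of the 4 groups overlapped: DMSO was highest, then ruxolitinib, then proliferating cells, with palbociclib lowest. BMP2 was 3.17-fold higher in DMSO than in proliferating cells (log2 difference 1.66, SE 0.09, adjusted p 3.05e-10). It was 6.13-fold lower with palbociclib than with DMSO (log2 difference -2.62, SE 0.09, adjusted p 1.53e-11) and 1.56-fold lower with ruxolitinib than with DMSO (log2 difference -0.64, SE 0.09, adjusted p 0.000559). Palbociclib cells were below proliferating cells as well (log2 difference -0.96, adjusted p 1.79e-07). Ruxolitinib cells remained above proliferating cells (log2 difference 1.02, adjusted p 9.83e-08).

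BMP4, a ligand close in sequence to BMP2 and known for its part in lung branching, moved the same way after irradiation but less. It lies at chr14:53949736-53958761 (minus strand, 4 exons), where its exons share bases with a long noncoding RNA on the other strand. Its values were 157.7, 201.8 and 169.5 normalized counts in proliferating, 281.1, 243.9 and 270.6 in DMSO, 169.3, 171.9 and 154.6 in palbociclib and 257.7, 267.4 and 288.7 in ruxolitinib libraries. DMSO and ruxolitinib libraries formed an upper band, proliferating and palbociclib libraries a lower one, and the bands did not overlap. BMP4 rose after irradiation (log2 difference 0.59, SE 0.10, adjusted p 0.000101) and fell with palbociclib (log2 difference -0.68, SE 0.10, adjusted p 8.12e-05). The ruxolitinib effect was 0.03 (95% interval -0.19 to 0.26) and did not pass the test. Palbociclib and proliferating cells differed by -0.09 (95% interval -0.31 to 0.13, adjusted p 0.460), which also did not pass.

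BMP6, a ligand best known for controlling iron balance through hepcidin in the liver, was the lowest of the 10 per kilobase of transcript in every group. It lies at chr6:7726099-7881728 (plus strand, 7 exons), and its exons share bases with TXNDC5 and BLOC1S5-TXNDC5 on the other strand. Proliferating libraries held 16.6, 15.5 and 9.52 normalized counts, DMSO libraries 46.5, 43.8 and 63.6, palbociclib libraries 40.9, 29.6 and 37.3, and ruxolitinib libraries 42.4, 37.8 and 41.5. All 9 senescent libraries lay above all 3 proliferating ones. BMP6 rose after irradiation 3.70-fold (log2 difference 1.83, SE 0.24, adjusted p 4.36e-06). The palbociclib libraries all lay below the DMSO libraries, but the difference did not pass the test (log2 difference -0.50, 95% interval -1.0 to 0.01, adjusted p 0.0987); at equal library totals it was -0.72 (adjusted p 0.0200). Ruxolitinib differed from DMSO by -0.31 (95% interval -0.82 to 0.19, adjusted p 0.591). Unlike BMP2 and BMP4, BMP6 was higher with palbociclib than in proliferating cells (log2 difference 1.33, SE 0.24, adjusted p 0.000108). The strand setting of the read counting is not given in the sources used here, and without it reads of BMP6 and TXNDC5 cannot be told apart where they overlap. TXNDC5 itself went from 398.4 to 431.4 normalized counts in proliferating to 226.7 to 309.0 in DMSO libraries, with 235.4 to 355.2 in palbociclib and 239.5 to 336.6 in ruxolitinib libraries.

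GREM1, the antagonist of BMP2 and BMP4, ran opposite to the ligands after irradiation. It lies at chr15:32718004-32745106 (plus strand, 2 exons), where GREM1-AS1 on the other strand shares exon bases with it. Its values were 1239, 1140 and 1433 normalized counts in proliferating, 615.7, 580.1 and 663.7 in DMSO, 993.8, 737.8 and 766.6 in palbociclib and 584.1, 644.7 and 609.1 in ruxolitinib libraries. Proliferating libraries were highest, palbociclib libraries came next without overlapping them, and DMSO and ruxolitinib libraries overlapped at the bottom. GREM1 fell 2.05-fold after irradiation (log2 difference -1.03, SE 0.11, adjusted p 2.90e-07). It was higher with palbociclib than with DMSO (log2 difference 0.41, SE 0.11, adjusted p 0.00450) and still below proliferating cells (log2 difference -0.62, adjusted p 7.12e-05). The palbociclib call was lost at equal library totals (log2 difference 0.19, adjusted p 0.129). Palbociclib library A119 was the high one of its group, and leaving out 1 library at a time gave 0.28 to 0.50. Without A119, A120 and A126, which leaves only A121 in the palbociclib group, the difference was 0.31. Ruxolitinib differed from DMSO by -0.02 (95% interval -0.24 to 0.21).

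Set against each other in the same library, which removes the scaling, ligand and antagonist parted after irradiation. The ratio of BMP2 to GREM1 normalized counts was 0.226, 0.273 and 0.195 in proliferating, 1.48, 1.63 and 1.36 in DMSO, 0.130, 0.234 and 0.192 in palbociclib and 1.07, 0.862 and 0.964 in ruxolitinib libraries. DMSO and ruxolitinib did not overlap each other or any other group, while proliferating and palbociclib libraries overlapped. These ratios are over gene counts and not over molecules of protein.

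**Figure D2:**
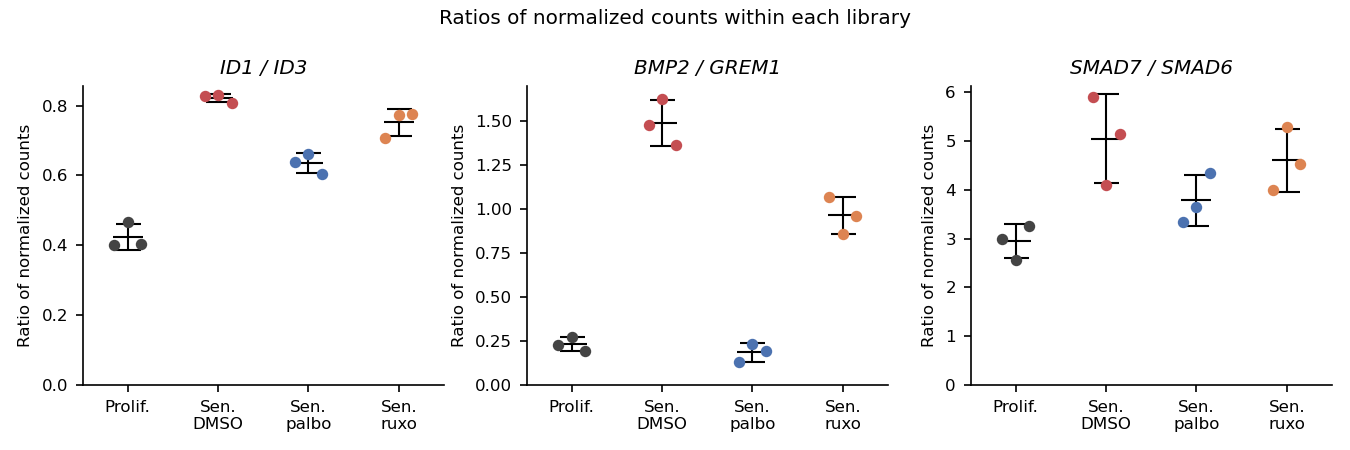
Ratio of normalized counts of a pair of genes within each library (y axis, linear, from 0) by group (x axis), with points for libraries and bars for the mean and SD (n = 3), for ID1 over ID3, BMP2 over GREM1 and SMAD7 over SMAD6. The ID1 to ID3 ratio is lowest in proliferating cells (0.402 to 0.467) and highest with DMSO (0.809 to 0.831), with palbociclib and ruxolitinib between them.

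The 4 ID genes split after irradiation: ID1 and ID2 rose, ID3 and ID4 fell. ID1, a rapid BMP target that is also active in endothelium and in cycling cells, lies at chr20:31605283-31606515 (plus strand, 2 exons). Its values were 855.0, 1057 and 838.0 normalized counts in proliferating, 1199.7, 1247 and 1205 in DMSO, 822.2, 1079 and 817.2 in palbociclib and 1186, 1206 and 1248 in ruxolitinib libraries. DMSO and ruxolitinib libraries formed an upper band above all proliferating and palbociclib libraries, as for BMP4. ID1 rose after irradiation (log2 difference 0.42, SE 0.10, adjusted p 0.00154) and fell with palbociclib (log2 difference -0.44, SE 0.10, adjusted p 0.00224). Libraries A126 and A120 were the high ones of their groups, and without both the differences were 0.52 and -0.57. Ruxolitinib differed from DMSO by 0.00 (95% interval -0.22 to 0.21), and palbociclib from proliferating cells by -0.02 (95% interval -0.23 to 0.19).

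ID2, known as an ID gene of cycling and of lymphoid cells, changed least of the 4 after irradiation and between palbociclib and DMSO. It lies at chr2:8678845-8684461 (plus strand, 3 exons) and shares exon bases with ID2-AS1 on the other strand. Its values were 1058, 1017 and 969.4 normalized counts in proliferating, 1194, 1209 and 1077 in DMSO, 1114, 1222 and 1019 in palbociclib and 1167, 1177 and 1195 in ruxolitinib libraries. The lowest DMSO library lay just above the highest proliferating one. ID2 rose after irradiation by a small step (log2 difference 0.19, SE 0.07, adjusted p 0.0213), a call that was lost without library A127, A116 or A117 (adjusted p 0.0808, 0.0746 and 0.0851). The palbociclib difference from DMSO was -0.05 (95% interval -0.20 to 0.09) and the ruxolitinib difference 0.03 (95% interval -0.12 to 0.17), neither of which passed the test. Without A119, A120 and A126 the palbociclib difference was -0.18, but it then rests on A121 alone, the low library of its group. With only A121 left out it was 0.01 (adjusted p 0.913).

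ID3, like ID1 a BMP target that pairs with E proteins, was the most abundant of the 10 per kilobase of transcript in every group. It lies at chr1:23557926-23559501 (minus strand, 3 exons). Its values were 2128, 2262 and 2068 normalized counts in proliferating, 1451, 1499.9 and 1489 in DMSO, 1288, 1633 and 1353 in palbociclib and 1674, 1560 and 1611 in ruxolitinib libraries. Proliferating libraries lay above all senescent ones, which were between 1288 and 1674. ID3 fell after irradiation (log2 difference -0.54, SE 0.07, adjusted p 7.54e-06) while ID1 rose in the same libraries. The palbociclib difference from DMSO was -0.06 (95% interval -0.22 to 0.09, adjusted p 0.504), with library A120 the high one of its group, and without A120 and A126 it was -0.16 (adjusted p 0.00836). With only A119 left out it was 0.0063 (adjusted p 0.949). This difference passed in 4 of 20 alternative analyses. Ruxolitinib libraries lay above DMSO libraries without passing the test (log2 difference 0.13, adjusted p 0.458).

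ID4, an ID gene studied mostly in neural and mammary cells, fell at both steps. It lies at chr6:19837370-19842197 (plus strand, 3 exons). Its values were 166.0, 142.0 and 142.8 normalized counts in proliferating, 93.0, 95.9 and 92.5 in DMSO, 45.4, 59.1 and 48.9 in palbociclib and 84.9, 97.2 and 90.2 in ruxolitinib libraries. DMSO and ruxolitinib overlapped, and otherwise the order was proliferating, then these, then palbociclib, with no overlap. ID4 fell by 0.67 on the log2 scale after irradiation (SE 0.13, adjusted p 0.000261) and fell by 0.87 again with palbociclib (SE 0.13, adjusted p 6.44e-05). Palbociclib cells held 2.94-fold less ID4 than proliferating cells (log2 difference -1.54, adjusted p 2.89e-08). Ruxolitinib differed from DMSO by -0.05 (95% interval -0.33 to 0.23).

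The balance of ID1 and ID3 separated all 4 groups. The ratio of ID1 to ID3 was 0.402, 0.467 and 0.405 in proliferating, 0.827, 0.831 and 0.809 in DMSO, 0.638, 0.661 and 0.604 in palbociclib and 0.709, 0.773 and 0.775 in ruxolitinib libraries. No 2 groups overlapped, with means of 0.425 ± 0.0368, 0.822 ± 0.0117, 0.634 ± 0.0286 and 0.752 ± 0.0376 (SD, n = 3) in that order. Libraries A126 and A120, high for both genes, had ratios of 0.467 and 0.661, the highest of their groups. The ratios were formed after the single genes had been seen and are given as a description, with no test.

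The inhibitory SMADs behaved differently from each other. SMAD7, the brake shared by BMP and TGF-beta signals, lies at chr18:48919853-48950965 (minus strand, 4 exons). Its values were 345.5, 370.4 and 362.8 normalized counts in proliferating, 701.8, 639.3 and 700.7 in DMSO, 470.3, 479.5 and 463.7 in palbociclib and 590.2, 584.4 and 571.2 in ruxolitinib libraries. All 4 groups were apart, in the order DMSO, ruxolitinib, palbociclib, proliferating. SMAD7 was 1.89-fold higher in DMSO than in proliferating cells (log2 difference 0.92, SE 0.06, adjusted p 3.17e-09) and lower with palbociclib than with DMSO (log2 difference -0.53, SE 0.06, adjusted p 7.98e-06). The ruxolitinib difference from DMSO was -0.22 (95% interval -0.36 to -0.09) and missed the threshold (adjusted p 0.0607), though it passed in 6 of 20 alternative analyses, among them the one without A120 and A126 (adjusted p 0.0201). Those libraries are in neither group, so the difference was still -0.22 and only the shared estimate of the spread changed. Palbociclib cells held more SMAD7 than proliferating cells (log2 difference 0.39, adjusted p 4.66e-05).

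SMAD6, the brake that acts mainly on BMP receptors and SMAD1, did not pass the test in any of the 6 comparisons. It lies at chr15:66702236-66782849 (plus strand, 4 exons). Its values were 115.2, 144.2 and 111.4 normalized counts in proliferating, 118.8, 156.3 and 136.4 in DMSO, 140.5, 131.4 and 106.6 in palbociclib and 147.4, 110.8 and 126.3 in ruxolitinib libraries. Every pair of groups overlapped. The difference between DMSO and proliferating cells was 0.15 (95% interval -0.17 to 0.47, adjusted p 0.384), an interval that holds neither the SMAD7 nor the BMP2 value; at equal library totals it was 0.38 and passed (adjusted p 0.0366). Palbociclib differed from DMSO by -0.12 (95% interval -0.44 to 0.20) and ruxolitinib by -0.10 (95% interval -0.42 to 0.22). The ratio of SMAD7 to SMAD6 was 2.57 to 3.26 in proliferating, 4.09 to 5.91 in DMSO, 3.35 to 4.35 in palbociclib and 4.01 to 5.28 in ruxolitinib libraries, so the 3 senescent groups overlapped one another and lay above the proliferating libraries.

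**Figure D3:**
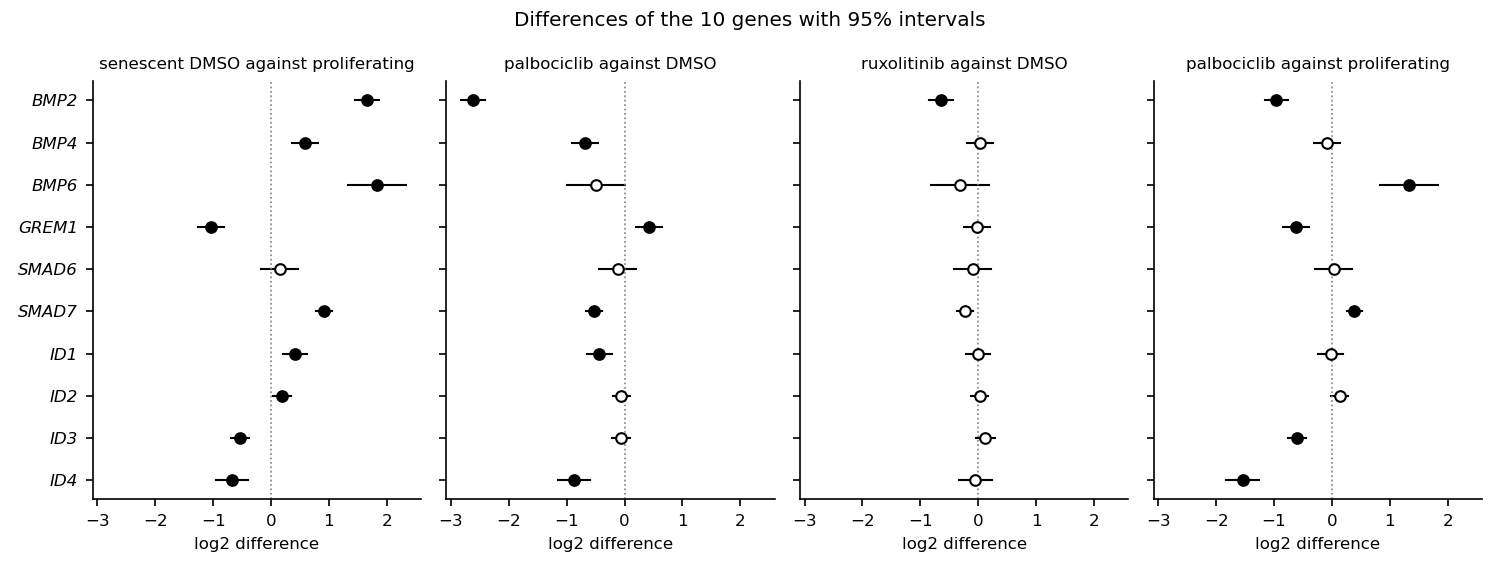
Log2 difference (x axis) of each of the 10 genes (y axis) with its 95% interval in 4 comparisons, DMSO against proliferating, palbociclib against DMSO, ruxolitinib against DMSO and palbociclib against proliferating, filled symbols marking an adjusted p under 0.05 in limma. BMP2 spans from 1.66 after irradiation to -2.62 with palbociclib, and the ruxolitinib points other than BMP2 are open.

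Per kilobase of canonical transcript, which makes levels comparable between genes, ID1, ID2 and ID3 stood above the rest in every group. In proliferating cells the mean level per kilobase was 2266 normalized counts for ID3, 932.5 for ID1 and 781.3 for ID2, and then 107.6 for SMAD7, 91.3 for BMP4, 87.2 for GREM1 and 82.0 for BMP2. The low end was ID4 at 38.8, SMAD6 at 32.3 and BMP6 at 3.67. BMP4, GREM1 and BMP2 were thus neighbours in proliferating cells and spread apart in DMSO cells, where the levels per kilobase were 259.5 for BMP2, 137.3 for BMP4 and 42.5 for GREM1. With palbociclib the order of these 3 became BMP4 at 85.6, GREM1 at 57.1 and BMP2 at 42.3. The GREM1 level rests on a canonical transcript of 14575 bases, and a shorter main transcript in these cells would raise it.

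The direct comparison of the inhibitors followed the same genes. Between palbociclib and ruxolitinib, 5 members were lower and 1 higher with palbociclib, where 40.4% of all genes were called (17.6% lower, 22.8% higher), and the groups did not overlap for 6 of the 10, as for 51.8% of all genes. BMP2 differed most (log2 difference -1.98, SE 0.09, adjusted p 5.47e-10), followed by ID4 (-0.82, adjusted p 0.000146), BMP4 (-0.71, adjusted p 6.70e-05), ID1 (-0.43, adjusted p 0.00297) and SMAD7 (-0.30, adjusted p 0.00143). GREM1 was higher with palbociclib (0.43, adjusted p 0.00422), a call lost at equal library totals (0.23, adjusted p 0.0739). ID3 differed by -0.19 and missed the threshold (adjusted p 0.0537), and without A120 and A126 it was -0.29 (adjusted p 5.00e-05). The ID3 difference passed in 9 of 20 alternative analyses and ranged from -0.39 to -0.12 over them. These are differences of response to the drugs at the same dose and days, in irradiated cells only.

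Against proliferating cells, palbociclib cells had 2 members higher (BMP6 and SMAD7) and 4 lower (BMP2, GREM1, ID3 and ID4), where 73.8% of all genes were called (35.2% higher, 38.6% lower), and the groups did not overlap for 6 members, against 70.9% of all genes. Ruxolitinib cells had 6 higher and 3 lower, where 72.2% were called (32.6% higher, 39.5% lower), and the groups did not overlap for 9 members, against 76.2% of all genes. The ruxolitinib comparison had log2 differences of 1.52 for BMP6, 1.02 for BMP2, 0.69 for SMAD7, 0.62 for BMP4, 0.41 for ID1 and 0.22 for ID2, and of -1.05 for GREM1, -0.72 for ID4 and -0.41 for ID3. The remaining gene was SMAD6 in the ruxolitinib comparison (0.05, adjusted p 0.769). In the palbociclib comparison BMP4, ID1, ID2 and SMAD6 did not pass, at -0.09, -0.02, 0.14 and 0.03. ID2 passed in 6 of 20 alternative analyses, among them edgeR (adjusted p 0.0328) and DESeq2 (adjusted p 0.0306), both at 0.18. ID1 passed in 1 of 20, with the trend on transcript length and GC content removed (-0.22, limma adjusted p 0.00122), and BMP4 and SMAD6 in 0.

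The other BMP pathway genes were taken from a list of 58, of which 53 were listed in the table and 41 tested; BMP8A, GDF6, GDF7, RGMB and BMPER were not analysed here. After irradiation 18 of the 41 rose, 18 fell and 5 did not pass, where 72.4% of all genes were called, 33% higher and 39.3% lower, and the median log2 difference was -0.07, against -0.05 over all genes. At equal library totals, which moved the median gene by 0.23, 20 rose and 12 fell. The shares of all genes are for the authors' scaling only. Among the 3 other ligands tested, BMP3 rose (log2 difference 0.88, adjusted p 0.0156; 0.15 and not passing under quantile normalization, and not passing without A127 or A118, adjusted p 0.0602 and 0.0508), while BMP7 (-1.23, adjusted p 0.00338) and GDF5 (-0.59, adjusted p 0.00448, but 0.0575 at equal library totals) fell. The level of BMP7 was low, at 40.4 ± 8.23 normalized counts in proliferating and 16.6 ± 2.63 in DMSO cells. Of the 4 type I receptors, ACVRL1, known from endothelium, rose (0.66, adjusted p 5.03e-06), BMPR1A (-0.31) and BMPR1B (-0.61) fell, and ACVR1 did not pass (0.04); the BMPR1A call was lost at equal library totals (adjusted p 0.462). Of the 3 type II receptors, ACVR2B fell (-0.44, adjusted p 0.0101, but 0.189 at equal library totals and 0.0590 without A125), and BMPR2 (-0.07) and ACVR2A (0.11) did not pass. Both tested co-receptors rose, ENG by 0.50 and NEO1 by 0.37. The signal-carrying SMADs fell in 3 of 4 cases, SMAD1 by 0.78, SMAD4 by 0.53 and SMAD5 by 0.36, and SMAD9 rose by 0.42 on the log2 scale; at equal library totals the SMAD5 call was lost (adjusted p 0.110).

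The brakes outside and inside the cell were mixed. Of 9 other secreted antagonists, 5 rose, 3 fell and 1 (CHRD) did not pass, where 33% of all genes were called higher and 39.3% lower. Among the 5 was NBL1 (0.60, adjusted p 0.0416), which lost its call without A125, A127, A117 or A118 and was -0.0025 under quantile normalization. NOG, which binds the ligands as GREM1 does, rose from 288.3 ± 20.3 to 487.1 ± 7.09 normalized counts (log2 difference 0.76, adjusted p 6.56e-08), and CHRDL2 rose from 6.12 ± 1.31 to 37.6 ± 6.51 (2.44, adjusted p 1.45e-07). FST, the follistatin gene, fell from 5796 ± 359 to 2763 ± 162 (-1.07, adjusted p 1.48e-09). So GREM1 and NOG, both antagonists of BMP2 and BMP4, moved in opposite directions in the same libraries. Of 6 brakes inside or on the cell, 4 rose: BAMBI, a decoy receptor, by 1.59, TOB1 by 1.53, and the ubiquitin ligases SMURF2 by 0.77 and SMURF1 by 0.34. SKI and SKIL, SMAD co-repressors, fell by 0.21 and 0.17 on the log2 scale, but at equal library totals both changed sign, to 0.02 and 0.06, and lost the call.

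The E proteins, partners that ID proteins hold, all fell after irradiation, where 33% of all genes were called higher and 39.3% lower. TCF3 went from 2698 ± 164 to 1040 ± 17.7 normalized counts (SD, n = 3; log2 difference -1.37, adjusted p 1.29e-11), TCF4 from 2880 ± 189 to 1045 ± 64.9 (-1.46, adjusted p 2.20e-11) and TCF12 from 2881 ± 238 to 1467 ± 49.4 (-0.97, adjusted p 3.91e-08). Each of the 3 fell by more than ID3 (-0.54) and ID4 (-0.67), and ID1 and ID2 rose in these libraries; these differences between genes were not tested. Of 5 other targets, ATOH8 (0.97, adjusted p 1.05e-08), MSX2 (0.87, adjusted p 6.09e-05) and MSX1 (0.45, adjusted p 0.0429, lost without A125, A126, A116, A117 or A118 at 0.0596 to 0.134) rose, RUNX2 fell (-0.87, adjusted p 9.48e-06) and HEY1 did not pass (-0.11).

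**Figure D4:**
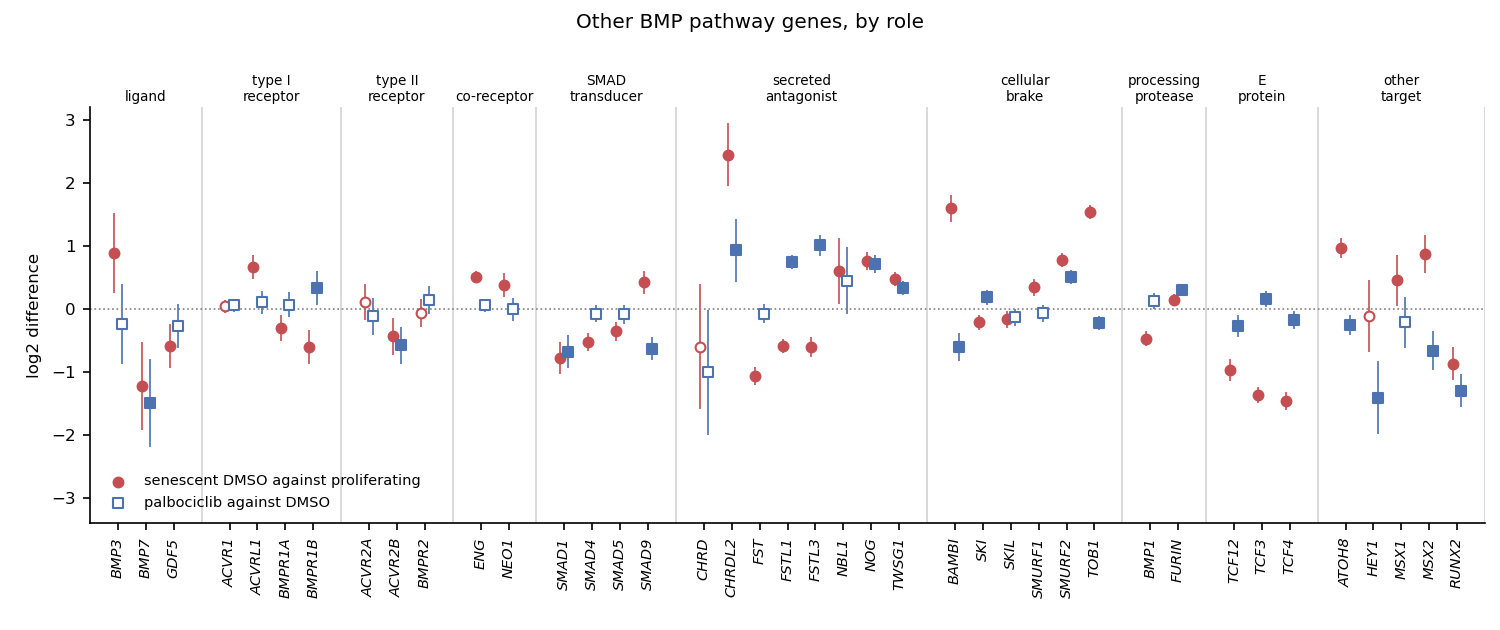
Log2 difference (y axis) with its 95% interval for 40 of the 41 tested genes of the wider pathway list, grouped by role (x axis), in DMSO against proliferating (circles) and palbociclib against DMSO (squares), filled symbols marking an adjusted p under 0.05 in limma. The 3 E proteins lie between -0.97 and -1.46 after irradiation, and the 4 filled squares among the 5 other targets are all below 0.

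With palbociclib, 10 of the 41 were higher than with DMSO, 13 lower and 18 did not pass, where 26% of all genes were called higher and 22.3% lower, and the median log2 difference was -0.08, against 0.02 over all genes. At equal library totals, which moved the median gene by -0.23, 5 were higher and 24 lower. The shares of all genes are for the authors' scaling only. Lower among the targets on this list were RUNX2 (-1.30, from 219.6 ± 32.0 to 88.5 ± 13.1 normalized counts), HEY1 (-1.41), MSX2 (-0.67) and ATOH8 (-0.26), 4 of 5 (22.3% of all genes were called lower), with MSX1 at -0.21 and not passing. Of the members that are also known targets, ID2, ID3 and SMAD6 did not pass either, at -0.05, -0.06 and -0.12. SMAD1 (-0.68, adjusted p 0.000308), SMAD9 (-0.64, adjusted p 2.32e-05), BMP7 (-1.49, adjusted p 0.00163) and BAMBI (-0.61, adjusted p 0.000187) were lower as well. BMP7 was near the floor, at 16.6 ± 2.63 normalized counts with DMSO and 5.58 ± 2.79 with palbociclib (4 to 8 reads in each library). Secreted antagonists were higher in 5 of 9 cases, lower in 1 and did not pass in 3. Among the 5, NOG rose to 794.6 ± 33.9 (log2 difference 0.70, adjusted p 7.64e-07), FSTL3 from 1714 ± 115 to 3459 ± 440 (1.01, adjusted p 5.97e-08), CHRDL2 by 0.93, FSTL1 by 0.74 and TWSG1 by 0.33 on the log2 scale. At equal library totals the TWSG1 call was lost (adjusted p 0.0812). Without A119, A120 and A126, which leaves only A121 in the palbociclib group, the calls of CHRDL2 (0.89) and ATOH8 (-0.16) were lost. The E proteins changed little, by 0.15 for TCF3, -0.19 for TCF4 and -0.27 for TCF12, each passing the test (adjusted p 0.0458, 0.0312 and 0.0137), but all 3 calls were lost without A120 (adjusted p 0.0634, 0.109 and 0.0570), and TCF3 changed sign at equal library totals, to -0.07.

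With ruxolitinib, 2 of the 41 were lower than with DMSO, SKIL (-0.26, adjusted p 0.0329) and GDF5 (-0.62, adjusted p 0.0428), and 0 were higher, where 4.52% of all genes were called. Leaving out any 1 of the 6 libraries compared lost both calls. Without A120 and A126 there were 4 lower and 0 higher, and 1325 of all genes were called against 508. Those libraries are in neither group, so the differences were unchanged and only the shared estimate of the spread changed. NOG stood at 472.2 ± 9.08, RUNX2 at 186.9 ± 11.4 and BAMBI at 464.9 ± 7.70 normalized counts, none of which passed against DMSO. Between palbociclib and ruxolitinib, 8 of the 41 were higher and 11 lower with palbociclib, where 22.8% of all genes were called higher and 17.6% lower. At equal library totals, which moved the median gene by -0.20, 5 were higher and 20 lower. In the authors' scaling NOG differed by 0.75 (adjusted p 5.25e-07), FSTL3 by 1.09 (adjusted p 3.50e-08), RUNX2 by -1.08 (adjusted p 5.34e-06) and BMP7 by -1.57 (adjusted p 0.00143). BMP7 means were low, at 5.58 normalized counts with palbociclib and 17.8 with ruxolitinib.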

How the data were processed

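The authors deposited 1 table of normalized counts, a signal that is never negative, in 12 columns. Per the submitters' processing notes, the tools were Trimmomatic 0.38.1, HISAT2 2.2.1, featureCounts 2.0.3 and DESeq2 2.11.40.8 on GRCh38; annotation and strand setting are not given in the sources used here. The table ended at Entrez gene 140467; genes beyond it were not analysed here. All 160380 positive values were whole multiples of 1 read per library (tolerance 0.01, 100%), so reads were recovered. Columns were assigned to groups by name; they carry a library number and no replicate number.

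Differences were tested on log2(normalized count + 1) with the R package limma (limma 3.58.1, R 4.3.3), a scale that understates changes of low genes, with 4 group means over 12 libraries, a mean trend, two-sided tests and Benjamini-Hochberg adjustment over 11242 genes with a mean of at least 10. Calls needed an adjusted p under 0.05. All intervals are 95%, SDs are over 3 libraries, and 6 comparisons were made. The fit was tested on simulated data. Members and lists were chosen with earlier results of these data known. A gene of the pathway list is counted but not reported here by name. The named genes are the 10 members, the tested genes of the pathway list, cell type markers by their sums, and for each member the 3 genes of mean at least 100 with the highest correlation over the 12 libraries. Some cell type markers are also given singly. Alternatives were pseudocounts of 0.1 and 5, no filter or a mean of at least 50, 3 other scalings, no trend, only the 2 groups compared, each library left out, edgeR 4.0.16 and DESeq2 1.42.0 on recovered reads and, chosen after seeing the data, A120 and A126 left out, A119, A120 and A126 left out (palbociclib then has 1 library, assumed to vary like the others), and a trend on transcript length and GC content removed.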

Additional observations from a re-analysis of the deposited data

How the results depend on the processing

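Over the 6 comparisons 37 member calls were made. Of 737 alternative values of called members 0 reversed and 5 lost the call: ID2 after irradiation without A127, A116 or A117, and GREM1 with palbociclib against DMSO and against ruxolitinib under the same total. Of 457 values of uncalled members 39 changed sign, none larger than 0.17 in size, and 35 passed the test; the cause was not tested. No paired analysis was possible because the columns carry no replicate numbers. The pathway list was counted under the same alternatives, and MSX1 and SKIL after irradiation and TCF3 and TCF4 with palbociclib were among those that lost their calls in several of them. Of 360 alternative counts, 338 were within 1.5 times the main count.

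Under the same total, palbociclib against DMSO had 0 members higher and 8 lower, palbociclib against ruxolitinib 0 higher, and ruxolitinib against DMSO 2 lower (SMAD7 joining BMP2). That scaling moved the median gene by -0.23, -0.20 and -0.03 in these comparisons. Ruxolitinib against DMSO also had 2 lower without a mean trend, with only the 2 groups compared, without A120 and A126, without A119, A120 and A126, and with the length and GC trend removed, and 1 higher (ID3) with only the 2 groups and without A119, A120 and A126. Its count over all genes, 508, was 1841 with only the 2 groups, 1325 without A120 and A126, 1666 without A119, A120 and A126, 993 with the trend removed, and 261 to 295 when 1 library was left out; edgeR called 556 and DESeq2 648. Palbociclib against proliferating had 1 member higher at a mean of at least 50, where BMP6 is not tested.

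Sign changes, as log2 differences, were as follows. For palbociclib against DMSO, SMAD6 was 0.12 under quantile scaling, and leaving out libraries gave -0.12 to 0.0108 for ID2 and -0.16 to 0.0063 for ID3. For ruxolitinib against DMSO, the upper quartile gave 9.91e-05 for GREM1 and 0.0112 for ID1, quantiles gave 0.0048 for GREM1, 0.0103 for ID1 and 0.015 for ID4, and leaving out libraries gave -0.0253 to 0.0768 for BMP4, -0.0625 to 0.0345 for GREM1, -0.0252 to 0.0127 for ID1, -0.0262 to 0.0573 for ID2 and -0.20 to 0.0014 for SMAD6. For palbociclib against ruxolitinib, quantiles gave 0.13 for BMP6 and 0.17 for SMAD6, and leaving out libraries -0.12 to 0.0935 for SMAD6. For palbociclib against proliferating, the upper quartile gave 0.0045 for BMP4 and 0.0713 for ID1, quantiles 0.13 and 0.11, edgeR 0.0202 and DESeq2 0.0226 for ID1, and SMAD6 was -0.087 without A119, A120 and A126 and -0.0946 with the trend removed; leaving out libraries gave -0.16 to 0.0137 for BMP4, -0.15 to 0.086 for ID1 and -0.0526 to 0.15 for SMAD6. For ruxolitinib against proliferating, SMAD6 was -0.0762 with the trend removed and -0.0532 to 0.17 when libraries were left out.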

Other observations

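Other genes whose level followed a member over the 12 libraries were looked up by Pearson's r on the log2 scale. These are descriptions: the libraries share 4 groups, so a gene that differs between groups in the same order gets a high r. BMP2 was followed most closely by CTSK (r = 0.990), the gene of cathepsin K, TNFAIP3 (0.983), a target and brake of NF-kappaB, and AEN (0.980), a nuclease induced by p53. Mean TNFAIP3 was 625.5 normalized counts with DMSO, 390.9 with ruxolitinib, 234.9 in proliferating cells and 122.7 with palbociclib, so that, as for BMP2, palbociclib cells were below proliferating cells. SMAD7 was followed by ATF3 (r = 0.983), a stress-induced transcription factor, PNPLA8 (0.982) and CXCL10 (0.980), an interferon-induced chemokine. Mean ATF3 was 1152 normalized counts with DMSO, 665.2 with ruxolitinib, 197.9 with palbociclib and 95.4 in proliferating cells, the same order as for SMAD7.

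ID4 was followed by TYMS (r = 0.986), the gene of thymidylate synthase, PELI2 (0.986) and KIF4A (0.985), a mitotic kinesin, the first and last of which belong to DNA replication and mitosis. Mean TYMS was 1509 normalized counts in proliferating cells, 388.5 with ruxolitinib, 376.7 with DMSO and 63.4 with palbociclib. BMP4 and ID1 had the same closest gene, CD82, a membrane protein of the tetraspanin family (r = 0.976 and 0.948). GREM1 was followed by RDX (0.991), ACTR2 (0.988) and KIF5B (0.987), genes of the cytoskeleton. ID3 was followed by GTF3A (0.974), BMP6 by STX3 (0.965) and ID2 by MTG2 (0.906). For SMAD6 the highest value was 0.770, with GSPT2.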
